A study of Mus musculus with 6 samples.

Results

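The 27 genes described here encode the enzymes of cholesterol synthesis and the proteins that set their transcription. Of these, 20 are enzymes that lead from acetyl-CoA to cholesterol, 6 belong to the sterol sensor that controls the transcription factor SREBP2, and 1, Stard4, encodes a sterol carrier. They were chosen by name from knowledge of the pathway, out of 20197 named genes with values on all arrays, and each array probe was tied to its gene through the RefSeq accession it carries. They were represented by 40 probes, of which 37 passed the filter on dim probes. All 27 genes had at least 1 such probe, among 12297 named genes in all.

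Liver RNA was measured on 1-colour Agilent mouse arrays in 3 mice lacking Gα12 (Gα12 KO) and 3 wild-type (WT) mice. Gα12, the product of Gna12, is a G protein α subunit that relays signals from receptors at the cell surface. All animals were male, 8 weeks old and on chow, and their livers were taken after a night without food. The labels give C57BL/6 and 129/Sv as strains, with 95% C57BL/6, but neither the deleted stretch of Gna12 nor whether the animals were littermates. The design addresses how loss of Gα12 bears on liver transcripts.

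Cholesterol is built from acetyl-CoA by way of mevalonate, the isoprenoid farnesyl diphosphate, squalene and lanosterol. SREBP2 is made as a membrane protein of the endoplasmic reticulum, where the escort protein SCAP and the INSIG proteins hold it while sterols are plentiful. When sterols run low, SCAP carries SREBP2 to the Golgi, where a pair of proteases releases its transcription factor domain, which then switches on most genes of the pathway. In liver the pathway is active after feeding and low in fasting.

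Each level below is a log2 signal after subtraction of its array's 75th percentile, and each difference is Gα12 KO minus WT, so that a negative value is lower in the knockout. Levels are compared within a probe and never between genes. The number of arrays, 3 in each group, limits the precision, and in whole liver fewer cells of a type and less RNA per cell cannot be told apart.

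The WT livers were not alike, and this touches every result below. Over the kept probes, the correlation with the 3 Gα12 KO livers was 0.87 to 0.93 for WT replicates 1 and 2 and 0.97 to 0.98 for WT replicate 3, and r between WT replicates 1 and 2 was 0.97. The 7 probes of the glycolysis gene Gapdh spanned 4.36 to 4.87 log2 units on the Gα12 KO arrays, and 9.58, 7.79 and 4.01 on WT replicates 1, 2 and 3. The Gα12 KO and WT arrays also filled different rows of the slide, so row and genotype cannot be told apart. Gna12 itself had 1 probe, at -4.91, -4.62 and -3.47 in Gα12 KO livers and at -3.48, -4.55 and -0.89 in WT livers. It was well above background in 0 of 3 Gα12 KO livers and 1 of 3 WT livers, so it gives little check of the genotype labels. Of 10 hepatocyte markers all 10 were measured. In Gα12 KO livers 0 were lower and 1 higher at an unadjusted limma p below 0.05, against 16.6% and 3.98% of all named genes. The albumin gene Alb had a mean of 10.4 in Gα12 KO and 10.3 in WT livers. The markers with the lowest p were Tat (1.39), which encodes an amino acid degrading enzyme and was higher in all 3 Gα12 KO livers, the urea cycle gene Cps1 (0.95) and the apolipoprotein gene Apoa1 (0.60). The signals of the 10 hepatocyte markers summed to 6757 to 9018 on the Gα12 KO arrays and 5551 to 10050 on the WT arrays, in multiples of the 75th percentile. The sums over 5 measured Kupffer cell markers were 57.3 to 73.7 on Gα12 KO and 55.4 to 136 on WT arrays, those over 6 endothelial markers 90.5 to 119 on Gα12 KO and 102 to 130 on WT arrays, and those over 5 stellate cell markers 5.15 to 7.04 on Gα12 KO and 6.64 to 18.3 on WT arrays. For 3 cholangiocyte markers they were 2.09 to 2.87 on Gα12 KO and 1.23 to 3.37 on WT arrays, for 5 lymphocyte and granulocyte markers 5.78 to 7.72 on Gα12 KO and 4.76 to 8.02 on WT arrays, and for 3 skeletal muscle markers 0.303 to 3.49 on Gα12 KO and 0.157 to 0.349 on WT arrays. Within these lists single markers differed in both directions at an unadjusted p below 0.05. The endothelial genes Kdr (2.28) and Cdh5 (2.40) and the muscle actin gene Acta1 (2.58) were higher in Gα12 KO livers and the stellate cell gene Lrat (-1.42) was lower, while the endothelial gene Stab2 differed by -0.90 and did not pass. For Cdh5 the Gα12 KO livers lay between 0.82 and 1.59, and the WT livers were at -2.78, -1.72 and 0.66. Cdh5 was well above background in 2 of 3 WT livers. Acta1 was well above background in 2 of 3 Gα12 KO livers and 1 of 3 WT livers, so its difference is limited by background. The part of other cell types in the results below was not tested.

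Most of the 27 genes were lower in Gα12 KO livers, but none passed the test over the whole array. The difference was below 0 for 22 of the 27, against 72.3% of all named genes. Limma found an unadjusted p below 0.05 with a lower level in the knockout for 12 of the 27 (44.4%), against a background of 16.6% of all named genes, and with a higher level for 0 of the 27, against 3.98%. After Benjamini-Hochberg adjustment over all 23132 kept probes, limma called 0 probes (0%), while 4861 (21%) had an unadjusted p below 0.05, and the lowest adjusted p among the 27 genes was 0.235. The 12 genes were Hmgcs1, Pmvk, Mvd, Idi1, Fdps, Ggps1, Cyp51, Tm7sf2, Msmo1, Sc5d, Insig1 and Stard4. The median difference was -0.97 over the 27 genes and -0.49 over all named genes.

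**Figure D1:**
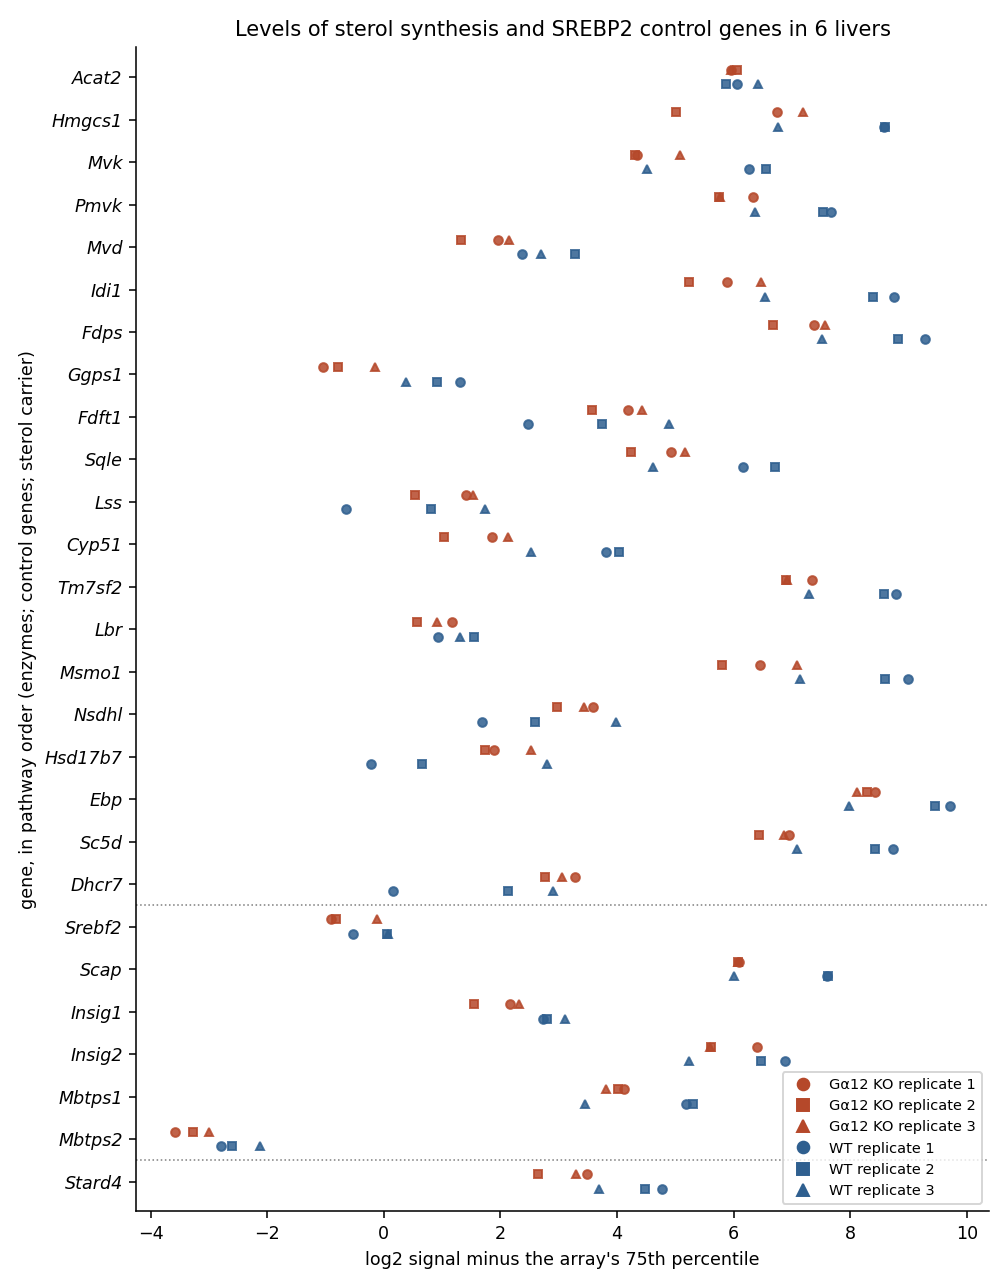
Levels of the 27 genes in each liver, on the x axis as log2 signal minus the array's 75th percentile, with the Gα12 KO livers drawn above the WT livers for each gene and a marker shape for each replicate. Genes run in pathway order down the page, with dotted lines before the 6 control genes and before the carrier Stard4. WT replicates 1 and 2 lie apart from the other 4 livers, to the right for 16 genes and to the left for Nsdhl, Hsd17b7 and Dhcr7.

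In 16 of the 27 genes (59.3%), WT replicates 1 and 2 were the highest of the 6 livers, as they were in 59.2% of all named genes. WT replicate 3 therefore gives a separate view. It lay above all 3 Gα12 KO livers for 17 of the 27 genes (63%, Mbtps2 included), against 32.6% of all named genes, and below all 3 for 4 of the 27 (14.8%), against 26.8%. Its median distance above the mean of the Gα12 KO livers was 0.45 over the 27 genes and 0.03 over all named genes. Without WT replicates 1 and 2 the comparison rests on 1 WT liver, whose spread is taken from the Gα12 KO livers. In that fit 2 of the 27 genes, Insig1 and Mbtps2, were lower at an unadjusted p below 0.05, against 4.06% of all named genes (limma adjusted p = 0.671 and 0.630). Mbtps2 was well above background in 0 of 3 Gα12 KO livers and passed the filter on dim probes through the WT livers alone. Its value therefore lends no support. The fit rests on 1 WT liver, so it does not single out Insig1 either.

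**Figure D2:**
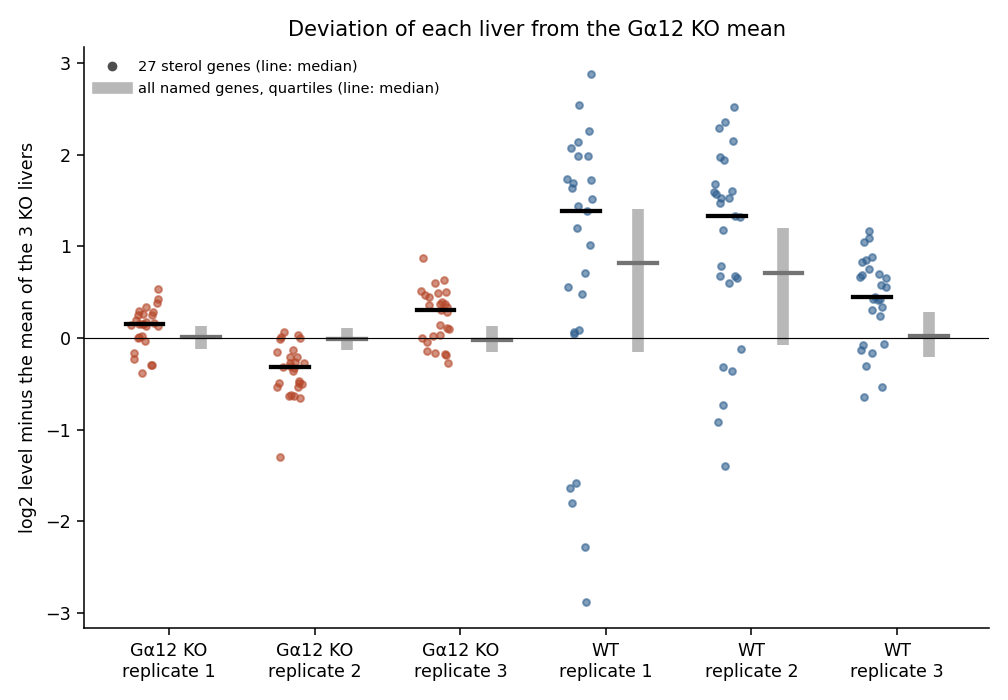
Level of each of the 27 genes (points) in each liver minus its mean over the 3 Gα12 KO livers, in log2 units, with the median as a black line. Grey bars give the quartiles of the same value over all 12297 named genes, with their median as a line. The median of the 27 genes was 1.39, 1.33 and 0.45 for WT replicates 1, 2 and 3, and that of all named genes 0.82, 0.71 and 0.03.

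The first steps of the pathway join acetyl-CoA units and make mevalonate. Acat2, the cytosolic thiolase that condenses acetyl-CoA to acetoacetyl-CoA, had similar levels in both groups, with 5.96, 6.06 and 5.95 in Gα12 KO livers and 6.06, 5.87 and 6.42 in WT livers. Its difference was -0.13, with a 95% interval of -0.84 to 0.59, and its sign turned with 3 of the scalings tried. Hmgcs1, whose synthase adds the third acetyl unit, was at 6.74, 5.01 and 7.19 in Gα12 KO livers and 8.57, 8.60 and 6.77 in WT livers. Gα12 KO replicate 2 was far below its group, and Gα12 KO replicate 3 lay above WT replicate 3, so the groups overlapped. The difference of -1.67 had an interval of -3.32 to -0.02, and it was -1.02 without Gα12 KO replicate 2 and -0.45 without WT replicates 1 and 2. Mvk, the mevalonate kinase gene, was at 4.34, 4.30 and 5.08 in Gα12 KO livers against 6.27, 6.55 and 4.52 in WT livers, and WT replicate 3 lay among the Gα12 KO livers. The second Mvk probe differed by -0.31, against -1.20 for the brighter one.

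For the kinase and decarboxylase that follow, the groups did not overlap. Pmvk, which adds the second phosphate to mevalonate, was at 6.33, 5.74 and 5.76 in Gα12 KO livers and 7.67, 7.54 and 6.36 in WT livers, a level 2.37-fold lower in the knockout (difference -1.25, interval -2.26 to -0.23). Its second probe differed by -1.23, and without WT replicates 1 and 2 the brighter probe differed by -0.42. All 3 Gα12 KO livers were below all 3 WT livers, although WT replicate 3 exceeded Gα12 KO replicate 1 by little. Mvd, which makes isopentenyl diphosphate, was at 1.96, 1.32 and 2.16 in Gα12 KO livers and 2.37, 3.28 and 2.69 in WT livers. Here WT replicate 1 was the lowest WT liver, and it lay above all 3 Gα12 KO livers. The difference was -0.97 (interval -1.88 to -0.07), and it was -0.88 with WT replicate 3 as the only WT liver.

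The isoprenoid steps held the largest difference of the pathway. Idi1, which isomerises isopentenyl diphosphate so that chains can grow, was at 5.89, 5.24 and 6.47 in Gα12 KO livers and 8.75, 8.39 and 6.54 in WT livers. It was 4.07-fold lower in the knockout (difference -2.02, interval -3.48 to -0.57, limma adjusted p = 0.235). WT replicates 1 and 2 stood about as far above WT replicate 3 as above Gα12 KO replicate 3, and without them the difference was -0.67. Fdps, the farnesyl diphosphate synthase gene, was at 7.38, 6.68 and 7.57 in Gα12 KO livers and 9.29, 8.82 and 7.52 in WT livers, and WT replicate 3 lay within the Gα12 KO range. Its difference was -1.33, and -0.31 without WT replicates 1 and 2.

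Ggps1 had the lowest p of the 27 genes. Its enzyme extends farnesyl diphosphate to geranylgeranyl diphosphate, a branch that serves protein prenylation rather than sterols. The levels were -1.05, -0.79 and -0.16 in Gα12 KO livers and 1.31, 0.90 and 0.38 in WT livers, with no overlap. The difference of -1.53 had an interval of -2.45 to -0.61 (limma adjusted p = 0.235), and it was -1.05 without WT replicates 1 and 2. The second Ggps1 probe differed by -0.93, and on it Gα12 KO replicate 1, at -0.91, was close to WT replicate 3, at -0.76, without overlap.

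The 3 genes that carry farnesyl diphosphate to lanosterol had differences of unlike sign. Sqle, the squalene epoxidase gene and a rate-limiting step, was at 4.92, 4.24 and 5.16 in Gα12 KO livers and 6.16, 6.71 and 4.62 in WT livers, and WT replicate 3 fell inside the Gα12 KO range. Fdft1, the squalene synthase gene, was at 4.19, 3.56 and 4.43 in Gα12 KO livers, against 2.47, 3.75 and 4.89 in WT livers. Lss, the lanosterol synthase gene, was at 1.41, 0.54 and 1.53 in Gα12 KO livers, against -0.64, 0.80 and 1.74 in WT livers. For Fdft1 and Lss the lowest liver was WT replicate 1 and the highest WT replicate 3, so that the fitted differences of 0.36 and 0.53 were positive. Both became negative without WT replicates 1 and 2, at -0.83 and -0.58, and both intervals with all livers spanned 0.

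After lanosterol, Cyp51 and Msmo1 remove methyl groups from the sterol ring. Cyp51, the lanosterol demethylase gene and a standard target of SREBP2, was at 1.85, 1.04 and 2.12 in Gα12 KO livers and 3.81, 4.03 and 2.53 in WT livers. The groups did not overlap, and the level was 3.45-fold lower in the knockout (difference -1.79, interval -2.95 to -0.62, limma adjusted p = 0.235). Msmo1, the methylsterol monooxygenase gene, was at 6.45, 5.79 and 7.08 in Gα12 KO livers and 8.99, 8.59 and 7.13 in WT livers. WT replicate 3 cleared Gα12 KO replicate 3 by a margin far smaller than the spread of the knockout. Its difference was -1.79 as well (interval -3.11 to -0.48), and without WT replicates 1 and 2 the differences were -0.86 for Cyp51 and -0.69 for Msmo1. Sc5d, a desaturase gene near the end of the pathway, was at 6.95, 6.44 and 6.86 in Gα12 KO livers and 8.74, 8.43 and 7.08 in WT livers, with a difference of -1.33 (interval -2.45 to -0.22), and of -0.33 without WT replicates 1 and 2.

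Other late enzymes gave no single direction. Ebp, the sterol isomerase gene, was at 8.43, 8.28 and 8.12 in Gα12 KO livers and 9.72, 9.46 and 7.98 in WT livers, so WT replicate 3 was the lowest of all 6. Hsd17b7, which acts as a ketosteroid reductase, was at 1.89, 1.74 and 2.52 in Gα12 KO livers and -0.22, 0.65 and 2.81 in WT livers, and both of its probes had a positive difference (0.97 and 0.85). On both, WT replicate 3 was the highest liver, and the brighter probe differed by -0.75 without WT replicates 1 and 2. Dhcr7, which makes the last reduction of one route, was at 3.29, 2.76 and 3.06 in Gα12 KO livers and 0.16, 2.12 and 2.90 in WT livers. Its difference of 1.31, the largest positive one of the 27, had an interval of -0.24 to 2.85 and was 0.13 without WT replicates 1 and 2. Lbr, a sterol reductase that is also a receptor of the nuclear lamina, differed by -0.37, with levels of 0.56 to 1.18 in Gα12 KO livers and 0.93 to 1.54 in WT livers. Tm7sf2, the second gene for that reduction, is described with its probes below.

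**Figure D3:**
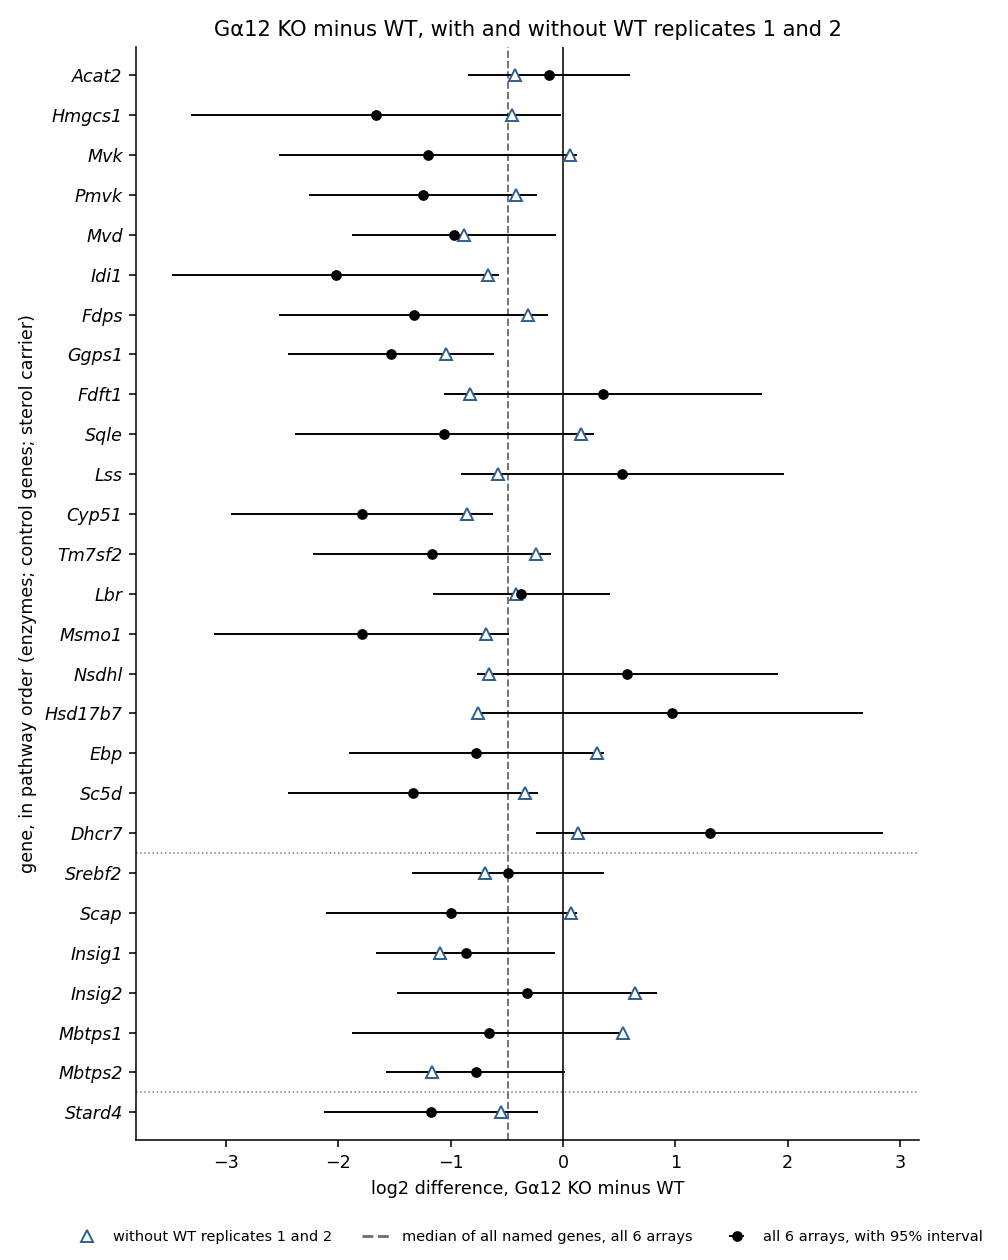
Log2 difference, Gα12 KO minus WT, for each of the 27 genes in pathway order, from all 6 arrays with its 95% interval (black points and lines) and without WT replicates 1 and 2 (open triangles). The dashed line is the median of all named genes from all 6 arrays, -0.49. Without WT replicates 1 and 2 that median was -0.03. For 20 of the 27 genes the triangle lies below 0, as the same value does for 6554 of 12297 named genes. Fdft1, Lss, Nsdhl and Hsd17b7 move from positive to negative values.

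Among the control genes measured above background in both groups, Insig1 was lower in every Gα12 KO liver than in any WT liver. Insig1, whose product retains the SCAP and SREBP2 complex and whose gene is itself an SREBP2 target, was at 2.17, 1.55 and 2.32 in Gα12 KO livers and 2.73, 2.80 and 3.11 in WT livers. WT replicate 3 was the highest liver here, and the 3 WT livers lay close together. The level was 1.82-fold lower in the knockout (difference -0.87, interval -1.66 to -0.07, limma adjusted p = 0.235), and the difference was -1.09 without WT replicates 1 and 2. Mbtps2, which encodes the second protease that frees SREBP2, was well above background in 0 of 3 Gα12 KO livers and 3 of 3 WT livers. Its mean was -3.28 in Gα12 KO and -2.50 in WT livers. The difference of -0.78 had an interval of -1.58 to 0.02, which spanned 0 (limma adjusted p = 0.239). Since this gene passed the filter through the WT livers alone, its separation of the groups is no support for a lower level. The mean of the WT livers was 1.12-fold above the lowest signals well above background on the Gα12 KO arrays. Those signals belong to other probes, so they set no bound for Mbtps2.

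The remaining control genes overlapped between the groups. Srebf2, which encodes SREBP2, was at -0.91, -0.83 and -0.12 in Gα12 KO livers and -0.53, 0.06 and 0.07 in WT livers, a difference of -0.49 with an interval of -1.34 to 0.37. Scap, the escort gene, was at 6.08, 6.07 and 6.08 in Gα12 KO livers and 7.60, 7.61 and 6.00 in WT livers. The 3 Gα12 KO livers and WT replicate 3 thus had nearly the same Scap level, and WT replicates 1 and 2 stood above it. Mbtps1, the gene of the first protease, was at 4.12, 4.02 and 3.81 in Gα12 KO livers and 5.18, 5.31 and 3.45 in WT livers. Insig2, the second INSIG gene, was at 6.40, 5.61 and 5.60 in Gα12 KO livers and 6.88, 6.48 and 5.23 in WT livers. In both, WT replicate 3 was the lowest liver, and without WT replicates 1 and 2 the differences turned positive, at 0.53 for Mbtps1 and 0.64 for Insig2. Stard4, whose product moves sterols between membranes, was at 3.48, 2.65 and 3.29 in Gα12 KO livers and 4.78, 4.47 and 3.70 in WT livers. Its probes differed by -1.17 and -0.92, and on neither did the groups overlap, while the brighter one differed by -0.56 without WT replicates 1 and 2.

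In all, the 3 Gα12 KO livers lay below the 3 WT livers for 10 of the 27 genes (37%), against 21.1% of all named genes, and above them for 0 of the 27, against 4.42%. Of the 10, 9 also had an unadjusted p below 0.05, and the other was Mbtps2, which passed the filter through the WT livers alone. The count of 12 genes lower at that p was 7 without Gα12 KO replicate 1 (6.42% of all named genes) or without WT replicate 1 (5.42%), and 3 without Gα12 KO replicate 2 (4.5%) or without WT replicate 2 (4.72%). Without WT replicate 3 it was 17, against 54.8% of all named genes, and limma then called 18 of the 27 genes at an adjusted p below 0.05, 15 of them lower, while it called 62.2% of all named genes.

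The sterol enzymes also varied among the Gα12 KO livers, more than named genes as a whole did. The median SD between the 3 Gα12 KO livers was 0.43 over the 27 genes and 0.19 over all named genes. Gα12 KO replicate 2 was the lowest of the 3 for 20 of the 27 genes (74.1%), against 32.1% of all named genes. Among the 20 enzymes it was the lowest of the 3 for 17 (85%), against the same 32.1%. The exceptions among the enzymes were Acat2, Ggps1 and Ebp. Over the 27 genes its median distance from the mean of its group was -0.31, whereas Gα12 KO replicates 1 and 3 were at 0.15 and 0.31. Hmgcs1 showed the widest range, and Scap the narrowest. These counts come from 1 liver, and the genes share its array.

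Genes with 2 kept probes showed how far the values depended on the probe. Of 10 such genes, 3 had probes with differences of opposite sign, against 43.1% of all genes with several kept probes, and 2 had probes whose differences lay more than 1 log2 unit apart, against 39.3%. For Tm7sf2 the brighter probe was at 7.34, 6.90 and 6.91 in Gα12 KO livers and 8.78, 8.58 and 7.29 in WT livers, a difference of -1.17 that was -0.24 without WT replicates 1 and 2. The dimmer probe was at 5.33, 4.84 and 4.62 in Gα12 KO livers and 3.87, 4.56 and 5.30 in WT livers, a difference of 0.35. The gap between them was 2.01 to 2.29 in the 3 Gα12 KO livers and 1.99 in WT replicate 3, but 4.91 and 4.02 in WT replicates 1 and 2. Nsdhl, which encodes a sterol dehydrogenase, behaved in the same way in the other direction. Its brighter probe was above the dimmer one by 2.98 to 3.36 in Gα12 KO livers and by -0.24, 0.57 and 3.68 in WT replicates 1, 2 and 3, and the probes differed between genotypes by 0.57 and -1.22. The third was Srebf2, with -0.49 and 0.27. By contrast, the probes of Pmvk kept nearly the same gap in all 6 livers (0.92 to 1.03 in Gα12 KO and 0.84 to 1.18 in WT), as did those of Stard4 (3.46 to 3.83 and 3.61 to 4.23).

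**Figure D4:**
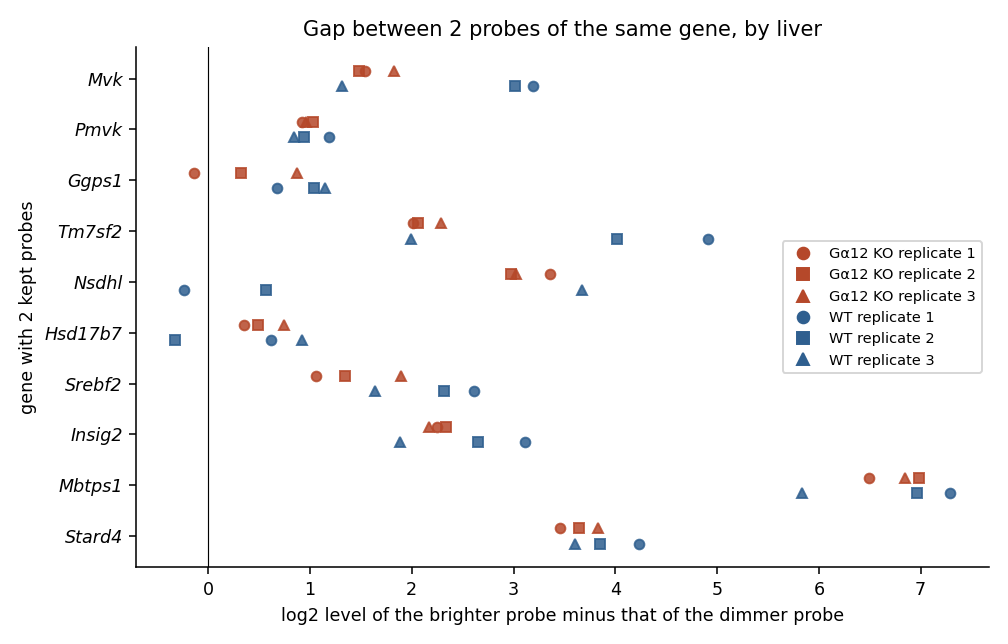
Log2 level of the brighter probe minus that of the dimmer probe for the 10 genes with 2 kept probes, in each liver, with Gα12 KO livers drawn above WT livers. For Mvk, Tm7sf2 and Nsdhl, WT replicates 1 and 2 lie more than 1 log2 unit from the other 4 livers, which lie together.

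Promoter sequences of the members were also searched for short motifs. SREBP2 binds sterol regulatory elements, usually beside a CCAAT box bound by the factor NF-Y. RefSeq windows of GRCm38.p6, from 250 bases before to 50 after a gene's start, were at hand for 23 of the 27 genes and were searched on both strands. The motif CCAAT was found for 19 of the 23 genes (82.6%), against 41.1% of all 27025 genes with a window. It was there for 10 of 10 genes with a lower level at an unadjusted limma p below 0.05 and for 9 of the 13 others. Fdps and Stard4, also lower at that p, had no window. The 4 genes without the motif were Acat2 and the control genes Mbtps1, Mbtps2 and Scap. The share with the motif among all named genes lower at that p was not taken, and a link between motif and level was not tested. The element TCACNCCAC, which does not overlap with CCAAT in these windows, was found for 1 of the 23 genes, Hmgcs1, against 1.44% of all genes. The windows below belong to the 4 genes with the most negative differences and to Hsd17b7. The difference of Hsd17b7 was positive with all livers and -0.75 without WT replicates 1 and 2. Capitals mark CCAAT, or ATTGG where it lies on the other strand, and in Hmgcs1 also the element.
Idi1, chr13:8885356-8885655, plus strand: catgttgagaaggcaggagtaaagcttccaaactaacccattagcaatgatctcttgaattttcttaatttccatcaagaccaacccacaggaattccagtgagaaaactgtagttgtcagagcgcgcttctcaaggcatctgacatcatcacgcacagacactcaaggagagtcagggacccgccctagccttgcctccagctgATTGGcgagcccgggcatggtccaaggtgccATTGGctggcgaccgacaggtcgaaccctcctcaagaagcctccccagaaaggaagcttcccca
Msmo1, chr8:64733529-64733828, minus strand: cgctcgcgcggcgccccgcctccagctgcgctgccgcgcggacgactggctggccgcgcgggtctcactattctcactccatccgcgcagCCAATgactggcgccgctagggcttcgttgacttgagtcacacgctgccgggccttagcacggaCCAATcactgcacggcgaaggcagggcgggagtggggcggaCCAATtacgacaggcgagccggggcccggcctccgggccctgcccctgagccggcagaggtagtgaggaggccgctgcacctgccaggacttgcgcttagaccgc
Cyp51, chr5:4104648-4104947, minus strand: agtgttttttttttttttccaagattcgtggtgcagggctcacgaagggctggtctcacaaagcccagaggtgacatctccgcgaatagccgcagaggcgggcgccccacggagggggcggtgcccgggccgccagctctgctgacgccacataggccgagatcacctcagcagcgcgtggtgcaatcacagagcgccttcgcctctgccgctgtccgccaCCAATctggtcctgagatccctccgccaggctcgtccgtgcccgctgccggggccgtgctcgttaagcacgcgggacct
Hmgcs1, chr13:119690101-119690400, plus strand: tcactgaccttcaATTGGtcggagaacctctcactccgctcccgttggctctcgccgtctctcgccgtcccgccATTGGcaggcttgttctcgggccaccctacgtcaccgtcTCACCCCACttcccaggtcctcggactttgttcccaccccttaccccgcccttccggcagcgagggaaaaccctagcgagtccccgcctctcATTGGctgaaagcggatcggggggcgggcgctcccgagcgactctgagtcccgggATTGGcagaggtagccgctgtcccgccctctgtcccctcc
Hsd17b7, chr1:169969156-169969455, minus strand: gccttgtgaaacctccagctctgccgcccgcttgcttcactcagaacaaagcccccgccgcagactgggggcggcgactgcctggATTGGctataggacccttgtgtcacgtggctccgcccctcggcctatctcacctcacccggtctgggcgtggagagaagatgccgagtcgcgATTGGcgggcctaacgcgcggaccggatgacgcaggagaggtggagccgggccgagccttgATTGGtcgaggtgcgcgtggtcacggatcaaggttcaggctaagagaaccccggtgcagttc

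Counted from the gene's start, Idi1 held ATTGG at -45 and -14, Msmo1 held 3 copies of CCAAT, and Cyp51 held 1, at -29. In Hmgcs1 the letters TCACCCCAC began at -137, between copies of ATTGG. Hsd17b7 held 3 copies of ATTGG. Such matches describe the letters only and are not measured binding sites.

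Partners of the pathway outside the 27 genes were read from lists chosen with earlier results known. Of 7 measured enzymes and partners of sterol synthesis, 2 were lower at an unadjusted p below 0.05 and 0 higher, with a median difference of -0.30. Of all named genes, 16.6% were lower and 3.98% higher. They were Erg28, a scaffold of the demethylating enzymes, at 6.23, 6.02 and 6.39 in Gα12 KO livers and 8.23, 7.84 and 6.54 in WT livers, and Cyb5b, a cytochrome b5 gene, with a difference of -1.29. Of 10 measured genes of INSIG turnover and SREBP traffic, 3 were lower and 1 higher, against 16.6% and 3.98% of all named genes. Erlin2 (-1.22) acts in the degradation of sterol-regulated membrane proteins and Pgrmc1 (-0.95) binds INSIG1 and SCAP, while Sec24d (2.26), a coat protein gene of vesicles that leave the endoplasmic reticulum, was higher. For Sec24d the WT livers were at -1.50, 0.13 and 1.76, and the Gα12 KO livers lay between 2.26 and 2.53. Of 10 measured genes of sterol esterification, oxidation and export, 1 was lower, against 16.6% of all named genes, the canalicular sterol exporter gene Abcg5 (-1.35). None of these genes passed limma's adjustment over all probes (lowest adjusted p = 0.235).

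Of 5 measured genes commonly used as loading controls, some but not all differed by similar amounts. At an unadjusted limma p below 0.05, 2 were lower and 0 higher, against 16.6% and 3.98% of all named genes. Hprt was at 4.55, 4.40 and 4.56 in Gα12 KO livers and 6.15, 6.02 and 4.73 in WT livers, a difference of -1.13. Tbp differed by -1.01 and Actb by -0.96, whereas the brightest Gapdh probe differed by -0.04. For Hprt and Tbp, as for 16 of the 27 sterol genes, WT replicates 1 and 2 were the highest of the 6 livers. The Gα12 KO mean minus WT replicate 3 was -0.23 for Hprt and -0.30 for Tbp. Over the 27 sterol genes, WT replicate 3 lay above the Gα12 KO mean by a median of 0.45. Differences near -1 were thus also measured outside the sterol genes, whose median was -0.48 from that of all named genes.

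**Figure D5:**
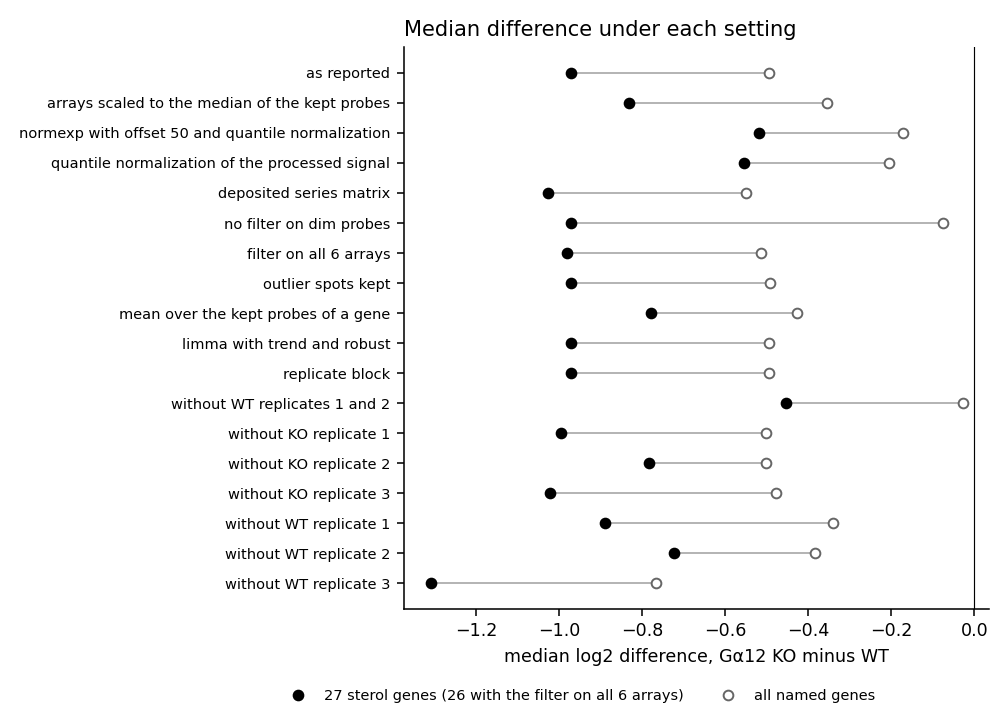
Median log2 difference, Gα12 KO minus WT, of the 27 genes (filled points) and of all named genes (open points) as reported and under each of 17 other settings, listed down the page. The filled point lies left of the open one in each, with a gap of -0.89 to -0.28.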

How the data were processed

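Liver RNA of 3 Gα12 KO and 3 WT mice was labelled with Cy3 from 0.5 µg of RNA and hybridised to 1 array each, per the labels' protocols. Agilent Feature Extraction 10.7.3.1 produced the scanner tables, per the file headers. The authors deposited spot intensity on a linear scale, and the processed intensity is background-subtracted with low values set to a floor. The series matrix deposited by the authors holds log2 values, which track log2 of the processed intensity up to an offset per array (column medians 4.32, 4.45 and 4.52 for Gα12 KO and 4.41, 4.17 and 4.70 for WT); how the offsets were chosen is not given in the sources used here.

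From the scanner files, log2 processed intensity minus the 75th percentile of non-control spots was taken, outlier spots were left out, and spots of a probe were averaged. Probes with a spot well above background on at least 3 of 6 arrays were kept (23132 of 55324 with values). Well above background were 20953 to 22585 probes on Gα12 KO arrays and 22951 to 28752 on WT arrays. Accessions of 26762 of 55681 probes matched RefSeq genes (GRCm38.p6). The kept probe with the highest mean stood for a gene. Limma 3.58.1 in R 4.3.3 (lmFit, eBayes, two-sided, Benjamini-Hochberg over kept probes) gave differences, and was first run on simulated data. The simulated arrays were independent, with the same spread in both groups for a probe. The WT arrays were not alike, so the simulation does not show how the test behaves on them. Sample titles gave group and replicate number, and each array was taken as 1 mouse. Where samples share an animal or a preparation, p-values measure the spread between these samples only. Correlations of deviations between Gα12 KO and WT arrays of the same number were -0.13, 0.01 and -0.04, so the numbers were not used as pairs.

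The members, the gene lists and the rule for naming genes (all members, and at most 3 genes with the lowest p of each other list, with fixed marker genes) were chosen with earlier results of these data known. The rule also covers 4 genes and 1 list that are not reported here, although the counts of the other lists include them. The normexp alternative used the median spot signal, since the files hold no mean signal.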

Additional observations from a re-analysis of the deposited data

How the results depend on the processing

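The median difference of the sterol genes was below that of all named genes under all 17 alternatives. Of the 27 genes, 15 had a negative difference under each alternative in which they were measured. Mbtps2, 1 of the 15, was not measured with the filter on all 6 arrays. The same count over all named genes was not taken, and 72.3% of them had a negative difference as reported. No sterol gene passed limma's adjusted threshold except without WT replicate 3. Limma called 2 probes after normexp with quantile normalization, 2 with the filter on all 6 arrays, 7 genes with the mean over the probes of a gene, and otherwise 0, apart from 13123 without WT replicate 3 (leave-one-out range 0 to 13123). The median of the sterol genes was -0.97, and -0.52 after normexp, -0.56 after quantile normalization, -0.83 with median scaling and -0.45 without WT replicates 1 and 2 (leave-one-out range -1.31 to -0.72). Median scaling moved the median of all named genes to -0.36, quantile normalization to -0.21 and normexp to -0.17, and the share of lower among genes at an unadjusted p below 0.05 was 80.6% as reported, 69.5% with median scaling, 42.6% without the filter and 70.2% with the replicate block. Relative to all named genes the median was -0.48, and keeping dim probes took it to -0.89 (leave-one-out range -0.55 to -0.28). Sterol genes lower at an unadjusted p below 0.05 numbered 12 (16.6% of all named genes), and 2 without WT replicates 1 and 2, 4.06% of all (leave-one-out range 3 to 17). Those with groups that did not overlap numbered 10 (21.1% of all named genes), and 17 without WT replicates 1 and 2 (32.6%), where 1 WT liver makes non-overlap easier (leave-one-out range 10 to 19, the highest without WT replicate 3, where it was 61.5% of all named genes).

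With the replicate number as a block, although no pairing was found, the count lower at an unadjusted p below 0.05 was 10, with 0 probes called and 12.5% of all named genes. Signs turned for Acat2 (0.013 with median scaling, 0.36 after normexp, 0.38 after quantile normalization, 0.025 without WT replicate 3), Insig2 (0.15 after normexp, 0.20 after quantile normalization) and Nsdhl (-0.32 with the mean over probes). Without WT replicates 1 and 2 they turned for Mvk (0.059), Sqle (0.16), Ebp (0.30), Scap (0.073), Insig2 (0.64), Mbtps1 (0.53), Fdft1 (-0.83), Lss (-0.58), Nsdhl (-0.66) and Hsd17b7 (-0.75), and without WT replicate 1 for Fdft1 (-0.26), Lss (-0.11) and Insig2 (0.020). Leave-one-out ranges were -0.26 to 0.95 for Fdft1, -0.11 to 1.08 for Lss, -0.81 to 0.020 for Insig2 and -0.25 to 0.025 for Acat2. The causes were not tested. Of the 27 genes, Mbtps2 is limited by signal over background.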

Other observations

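SREBP1, the relative of SREBP2 that governs fatty acid synthesis, and its targets formed a separate list. Of 10 measured genes, 5 had a lower level in Gα12 KO livers with an unadjusted p below 0.05 and 1, Srebf1, a higher one, against 16.6% and 3.98% of all named genes, and 0 passed limma's adjustment (lowest adjusted p = 0.235). Elovl6, a fatty acid elongase gene, was at 3.14, 2.96 and 3.46 in Gα12 KO livers and 4.63, 4.80 and 3.81 in WT livers, and Gα12 KO replicate 2 was again the lowest. Fasn, the fatty acid synthase gene, was at 0.29, 0.07 and 0.90 in Gα12 KO livers and 1.37, 2.13 and 1.21 in WT livers, and its groups did not overlap either. Srebf1, which encodes SREBP1, was at 1.86, 1.23 and 1.54 in Gα12 KO livers and -3.56, -1.62 and 0.98 in WT livers. All 3 Gα12 KO livers lay above all 3 WT livers, and their mean was 0.56 above WT replicate 3, the nearest. Srebf1 was well above background in 2 of 3 WT livers, so its lowest WT value is limited by background. The list's median difference was -1.27.

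Isoprenoids made by the pathway also feed other products. Of 8 measured genes of isoprenoid use, 2 had a lower and 0 a higher level with an unadjusted p below 0.05, against 16.6% and 3.98% of all named genes, and the median difference was -0.64. Fnta, which encodes a subunit of protein prenyltransferases, was at 4.05, 3.93 and 4.05 in Gα12 KO livers and 6.39, 5.68 and 4.25 in WT livers. Rabggta, a subunit of the enzyme that attaches geranylgeranyl groups to Rab proteins, differed by -0.94, with no overlap between the groups. The largest difference of the list went the other way. Pdss2, a subunit of the enzyme that makes the side chain of coenzyme Q, was at 0.77, 0.69 and 0.54 in Gα12 KO livers. In WT livers it was at -3.30, -1.13 and 0.63, a difference of 1.93 that did not pass. It was well above background in 2 of 3 WT livers.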
